A study of Mus musculus with 3 samples.

Results

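The TNF superfamily comprises trimeric cytokine ligands and the cell surface receptors that bind them, and its genes were read from expression arrays of macrophages of the 4T1 mammary carcinoma model. Members were all genes with a single platform symbol starting with Tnfsf or Tnfrsf, together with *Tnf*, *Lta*, *Ltb*, *Ltbr*, *Fas*, *Fasl*, *Cd27*, *Cd70*, *Cd40*, *Cd40lg*, *Eda2r* and *Ngfr*. They numbered 39 of the 18193 genes measured, and 23 of them lay above 5.3 on at least 1 array. This value, on the log2 scale of the arrays, was taken as the floor below which a signal is not told from background. The data consisted of 3 arrays, 1 each for BMDM, pTAMs and mTAMs. BMDM were macrophages differentiated in culture from bone marrow of healthy mice, whose strain and age are not given in the sources used here. pTAMs came from the primary tumor and mTAMs from the matched metastatic lung of BALB/c mice, inoculated in the mammary fat pad with syngeneic 4T1 cells at 5 to 6 weeks of age and used 5 weeks later. All cells were sorted by flow cytometry for macrophage surface markers, CD11b among them, and the tissues were first digested with enzymes. No genetic change or drug treatment is given for any group, and the number of mice behind an array is not stated.

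Ligands of this family are mostly made as membrane proteins and act on neighboring cells or are shed, and their receptors signal in 2 ways. Receptors with a death domain can recruit caspases, and most receptors bind TRAF adaptors that activate NF-κB and MAP kinases. Macrophages are a main source of TNF, and they carry receptors for TNF, lymphotoxin, CD40 ligand and RANKL, which steer inflammation, lymphoid tissue formation, survival and the formation of osteoclasts. Decoy receptors bind ligand without passing on the signal.

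All 3 arrays held the macrophage transcripts that the sort implies. Of 10 macrophage markers, 9 were measured and all 9 lay above the floor on every array, among them *Lyz2* (14.29, 13.90 and 14.04 in BMDM, pTAMs and mTAMs) and *Csf1r* (13.35, 13.27 and 12.89). Markers of other cells differed between the arrays, and several such lists were higher on the TAM arrays. The log2 of the summed signal of 10 neutrophil markers was 10.21 in BMDM, 14.96 in pTAMs and 16.05 in mTAMs. The list of immediate early and heat shock genes, known to answer to tissue handling as well as to signals, came to 12.36, 15.43 and 16.20. Single arrays allow neither a test nor an error across animals. The spread at hand was technical, between different probe sets that read the same gene, and the SD of their log2 differences was 0.43 when pTAMs were set against BMDM, 0.52 when mTAMs were, and 0.28 between mTAMs and pTAMs. In sorted bulk material, fewer cells of a type and less RNA per cell cannot be told apart.

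**Figure D1:**
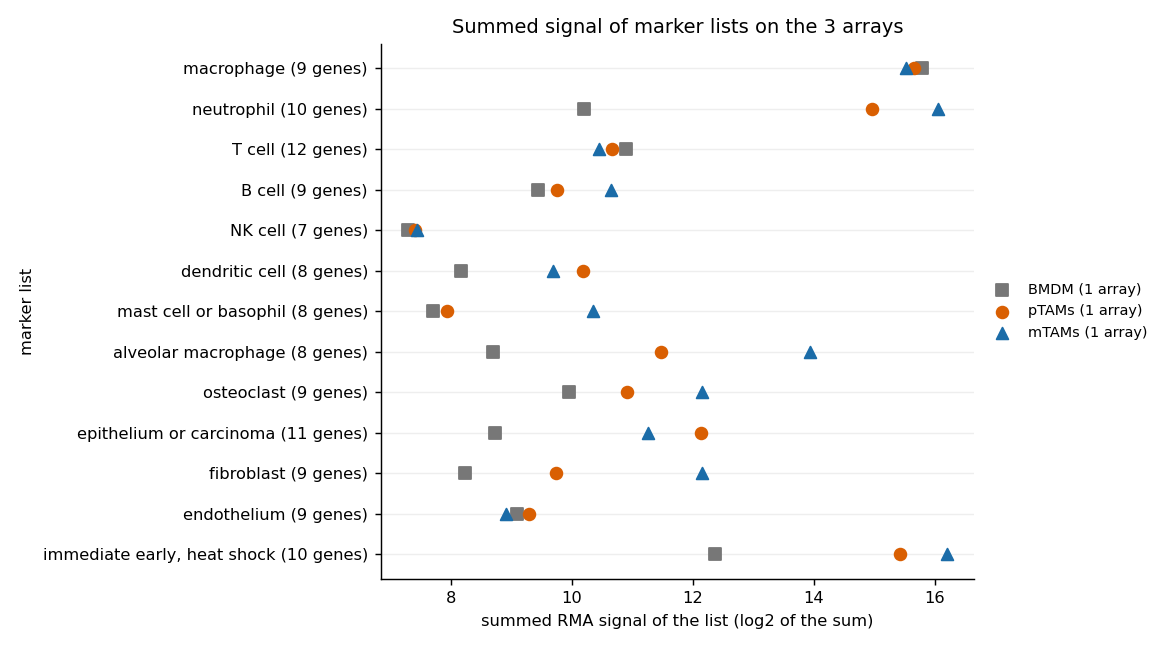
Log2 of the summed RMA signal of each marker list (horizontal axis) for the lists named on the vertical axis, with the number of genes measured, 1 point per array. The neutrophil list lies at 10.21 in BMDM, 14.96 in pTAMs and 16.05 in mTAMs, whereas the sum of the macrophage list differs little (15.78, 15.65 and 15.52). Single macrophage genes differ by more than this sum.

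Of the 23 genes above the floor, 7 encode ligands, 3 death domain receptors, 10 other signaling receptors and 2 decoy receptors. The last, *Tnfsf13os*, is a transcript from the opposite strand and encodes neither. In 21 genes the signal was above the floor on all 3 arrays. *Tnfrsf9* passed on 2 arrays and *Tnfrsf18* on 1, and these are the members that the filter could admit through a single high group. *Tnfrsf18* was just inside the floor with a highest value of 5.35, and *Tnfrsf8* just outside with 5.23. At or below the floor on all arrays were 16 genes. They were the ligand genes *Lta*, *Fasl*, *Cd70*, *Cd40lg*, *Tnfsf4* and *Tnfsf11*, and the receptor genes *Cd27*, *Eda2r*, *Ngfr*, *Tnfrsf8*, *Tnfrsf10b*, *Tnfrsf11b*, *Tnfrsf13c*, *Tnfrsf17*, *Tnfrsf19* and *Tnfrsf25*. For these no difference could be read.

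**Figure D2:**
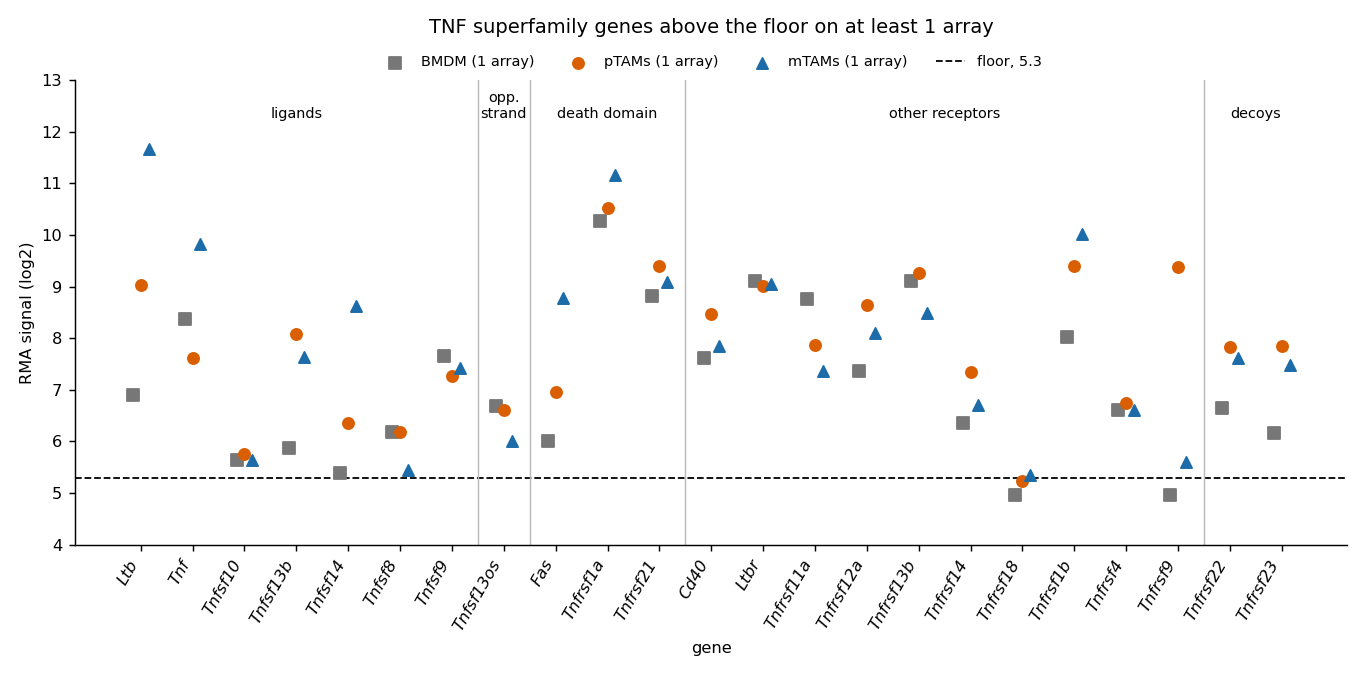
RMA signal (vertical axis, log2) of the 23 TNF superfamily genes above the floor on at least 1 array (horizontal axis, grouped by role), 1 point per array, and a dashed line at the 5.3 floor. *Ltb*, *Tnf*, *Tnfsf14* and *Fas* are highest in mTAMs, *Tnfrsf9* stands at 9.37 in pTAMs and near the floor elsewhere, and *Ltbr* is level on the 3 arrays. Signals of different genes are not comparable.

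The comparison between mTAMs and pTAMs asks how macrophages of the metastatic lung differ from those of the primary tumor. No array holds macrophages of normal lung, so effects of the organ and of the metastasis cannot be told apart. A gene is called higher or lower below where the arrays differed by 2-fold or more as measured, also where 1 value lay below the floor. In mTAMs 4 members were called higher, the ligand genes *Ltb*, *Tnf* and *Tnfsf14* and the death receptor gene *Fas*, and 1 was called lower, *Tnfrsf9*. These were 17.4% and 4.35% of 23 members, and of all 11801 genes compared 5.36% were called higher and 2.58% lower. The median log2 difference was -0.21 for the members and -0.06 for all genes. The other 18 members were within 2-fold with the probe sets used, from -0.78 for *Tnfrsf13b* to 0.65 for *Tnfrsf1a*.

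*Ltb* encodes lymphotoxin-β, which anchors lymphotoxin-α in the membrane to form the ligand of the lymphotoxin-β receptor. Its signal was 6.90 in BMDM, 9.03 in pTAMs and 11.66 in mTAMs. It was thus lowest in BMDM and highest in mTAMs, which exceeded pTAMs 6.19-fold and BMDM 27.1-fold. Between mTAMs and pTAMs 84 of 11801 genes had a larger difference as measured. *Lta*, its partner gene, was at background on every array (3.87, 3.97 and 3.83). Lymphocytes are a known source of *Ltb*, and some of their markers were also highest in mTAMs. *Cd3d* was 5.86, 6.03 and 8.31 in BMDM, pTAMs and mTAMs, *Cd2* was 6.35, 5.62 and 7.67, *Cd3e* was 6.49, 6.52 and 6.57, and *Cd3g*, *Cd5*, *Thy1* and *Foxp3* were below the floor on all arrays. The 12 T cell markers measured had a log2 summed signal of 10.89, 10.66 and 10.44. Of 7 compared between mTAMs and pTAMs, 2 were called higher, *Cd3d* and *Cd2*, and 1 lower, *Il7r*. The sum is weighted most by *Il7r*, at 10.19, 10.08 and 8.82, and does not follow *Cd3d* and *Cd2*. Of 9 B cell markers, 5 were above the floor on at least 1 array and their list summed to 9.43, 9.75 and 10.64. In mTAMs 2 of 4 were called higher than in pTAMs and 3 of 5 higher than in BMDM, with none lower. *Cd22* was 6.95, 7.08 and 8.74, *Ighm* 8.49, 8.99 and 9.81, and *Jchain* 4.15, 4.13 and 6.23, while *Cd79a*, *Cd79b* and *Ms4a1* were below the floor on all arrays. The part of lymphocytes in the *Ltb* difference was not tested.

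*Tnf* encodes the founding cytokine of the family. Its signal was 8.37 in BMDM, 7.62 in pTAMs and 9.83 in mTAMs, so that pTAMs were lowest and mTAMs highest. mTAMs exceeded pTAMs 4.63-fold and BMDM 2.75-fold. *Tnfsf14* encodes LIGHT, a ligand of both the lymphotoxin-β receptor and the receptor HVEM. It stood at 5.39 in BMDM, 6.35 in pTAMs and 8.62 in mTAMs, a 4.82-fold difference of mTAMs from pTAMs and a 9.38-fold difference from BMDM. In BMDM it lay just above the floor. A second probe set of *Tnfsf14* was 5.13 in BMDM, below the floor, 5.61 in pTAMs and 8.07 in mTAMs, and its log2 difference between mTAMs and pTAMs was 2.46, where the probe set used gave 2.27. *Fas*, the receptor of Fas ligand that can start apoptosis, was 6.0, 6.96 and 8.78 in BMDM, pTAMs and mTAMs. In mTAMs it was above pTAMs 3.53-fold and above BMDM 6.87-fold. The gene of its own ligand was at background (3.66 on all arrays).

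These 4 genes shared the order of the neutrophil list between pTAMs and mTAMs. Between these arrays 7 of 10 neutrophil markers were called higher in mTAMs and none lower. *Cxcr2*, the chemokine receptor gene of neutrophils, was 5.14, 8.18 and 11.32 in BMDM, pTAMs and mTAMs, and *Csf3r* was 6.28, 10.02 and 12.52. In pTAMs against BMDM 8 of 10 were called higher and none lower. Markers of alveolar macrophages, the resident macrophages of the lung, were called higher in mTAMs than in pTAMs for 8 of 8 (log2 summed signal 8.69, 11.48 and 13.94 in BMDM, pTAMs and mTAMs), and markers of mast cells and basophils for 5 of 5 compared (7.70, 7.93 and 10.34). Of the 8 mast cell and basophil markers, *Fcer1a*, *Tpsb2* and *Cma1* were below the floor on all arrays, and *Kit* (4.0, 5.95 and 8.83) and *Mcpt8* (4.66, 4.89 and 8.90) were highest in mTAMs. Fibroblast markers were called higher in mTAMs than in pTAMs for 3 of 7 compared and lower for none (log2 summed signal 8.24, 9.73 and 12.15), among them *Col3a1* (4.75, 8.15 and 11.09) and *Dcn* (5.32, 7.02 and 10.28). Of the immediate early and heat shock genes, 3 of 10 were called higher. The part of these cells and of tissue handling in the 4 differences was not tested.

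Promoter windows of the 4 genes are shown because the genes were higher together in mTAMs. They are the 250 bases upstream of the transcript start in RefSeq, build GRCm38.p6, written 5′ to 3′ on the strand of the gene. Capitals mark matches on either strand to the 10-base NF-κB consensus, to TATAAA and to the AP-1 site TGANTCA.

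Ltb (chr17:35194257-35194506, plus strand): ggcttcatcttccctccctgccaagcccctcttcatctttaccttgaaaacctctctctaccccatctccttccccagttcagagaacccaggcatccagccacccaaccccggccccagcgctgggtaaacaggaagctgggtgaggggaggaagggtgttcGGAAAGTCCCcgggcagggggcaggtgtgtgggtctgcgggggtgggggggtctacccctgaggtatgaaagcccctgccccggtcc
Tnf (chr17:35202008-35202257, minus strand): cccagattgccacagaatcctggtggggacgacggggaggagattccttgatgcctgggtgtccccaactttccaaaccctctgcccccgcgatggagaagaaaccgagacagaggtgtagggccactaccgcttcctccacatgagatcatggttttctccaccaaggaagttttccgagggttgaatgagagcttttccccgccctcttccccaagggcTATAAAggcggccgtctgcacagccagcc
Tnfsf14 (chr17:57194182-57194431, minus strand): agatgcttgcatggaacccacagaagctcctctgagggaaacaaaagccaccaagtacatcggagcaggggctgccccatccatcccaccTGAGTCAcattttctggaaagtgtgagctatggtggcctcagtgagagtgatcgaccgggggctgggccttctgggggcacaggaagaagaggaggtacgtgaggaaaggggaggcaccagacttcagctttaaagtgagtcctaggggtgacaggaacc
Fas (chr19:34290409-34290658, plus strand): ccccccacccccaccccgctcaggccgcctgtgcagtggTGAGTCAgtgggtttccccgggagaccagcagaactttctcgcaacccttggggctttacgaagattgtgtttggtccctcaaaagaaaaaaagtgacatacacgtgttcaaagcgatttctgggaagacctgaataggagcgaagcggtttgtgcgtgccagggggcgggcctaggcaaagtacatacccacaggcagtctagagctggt

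The capitals are an NF-κB match in *Ltb*, TATAAA in *Tnf*, and TGANTCA in *Tnfsf14* and *Fas*, so no motif was shared by all 4. A window was found for 19 of the 23 genes, without *Cd40*, *Tnfrsf22*, *Tnfsf9* and *Tnfsf13os*. Of all 32851 windows of this length in the table, 3.90% held an NF-κB match, 12.4% TATAAA and 6.75% TGANTCA. Counted by gene, the NF-κB consensus matched in 2 of 19 members and in 4.46% of 27025 genes, TATAAA in 2 and 14.3%, and TGANTCA in 4 and 7.82%. A match describes the letters and not a bound site.

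*Tnfrsf9* had the reverse pattern. It encodes 4-1BB, a costimulatory receptor best known from activated T and NK cells. Its signal was 4.97 in BMDM, 9.37 in pTAMs and 5.6 in mTAMs, so that pTAMs alone were clearly above the floor. pTAMs exceeded BMDM by at least 16.8-fold, and mTAMs lay 13.6-fold below pTAMs. A second probe set of *Tnfrsf9* was 3.83, 9.08 and 4.31 in BMDM, pTAMs and mTAMs, and the third was below the floor on all arrays. Markers of these cells were read beside it. Of 8 T cell markers compared between pTAMs and BMDM, none was called higher in pTAMs and 1, *Cd28*, was called lower (7.78 in BMDM and 5.27 in pTAMs). Of 7 NK cell markers, *Nkg7* alone was above the floor (5.44, 5.71 and 5.85), and *Ncr1*, *Gzma* and *Eomes* were below it throughout. Epithelial and carcinoma markers, which the tumor cells could bring, were called higher in pTAMs than in BMDM for 7 of 9, and lower in mTAMs than in pTAMs for 2 of 9 with none higher. Their log2 summed signal was 8.73, 12.14 and 11.27, and *Cdh1* was 4.73, 9.88 and 8.16. Dendritic cell markers were called higher in pTAMs than in BMDM for 3 of 7 and lower for none. These were *Fscn1* (4.07, 9.57 and 8.97), *Cd209a* (5.13, 6.64 and 6.06) and *Ccl22* (4.94, 6.11 and 5.11). *Flt3* (5.69, 5.72 and 5.72) and *Zbtb46* (5.94, 5.99 and 5.91) were level, and *Xcr1* was below the floor on all arrays. The part of T, NK, dendritic and tumor cells in the *Tnfrsf9* difference was not tested. The gene of the ligand, *Tnfsf9* (4-1BBL), was 7.65, 7.27 and 7.42, within 2-fold in every comparison.

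RefSeq lists 2 transcript starts for *Tnfrsf9*, and both upstream windows are shown because the gene had the largest difference of all members between pTAMs and mTAMs. Capitals are as above.

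Tnfrsf9, first start (chr4:150919905-150920154, plus strand): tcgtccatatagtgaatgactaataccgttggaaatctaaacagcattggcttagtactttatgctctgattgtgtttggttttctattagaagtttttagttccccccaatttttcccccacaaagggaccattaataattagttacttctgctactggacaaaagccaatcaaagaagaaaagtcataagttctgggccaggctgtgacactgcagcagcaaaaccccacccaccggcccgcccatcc
Tnfrsf9, second start (chr4:150927749-150927998, plus strand): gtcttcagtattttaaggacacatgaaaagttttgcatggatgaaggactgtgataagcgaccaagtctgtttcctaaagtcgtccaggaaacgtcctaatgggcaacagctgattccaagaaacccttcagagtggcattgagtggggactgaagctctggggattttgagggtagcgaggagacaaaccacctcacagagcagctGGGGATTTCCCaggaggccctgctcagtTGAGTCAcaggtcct

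In the window of the second start, 2 overlapping matches to the NF-κB consensus were followed by TGANTCA. The first window held none of the 3 motifs. The arrays do not tell transcripts from the 2 starts apart.

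**Figure D3:**
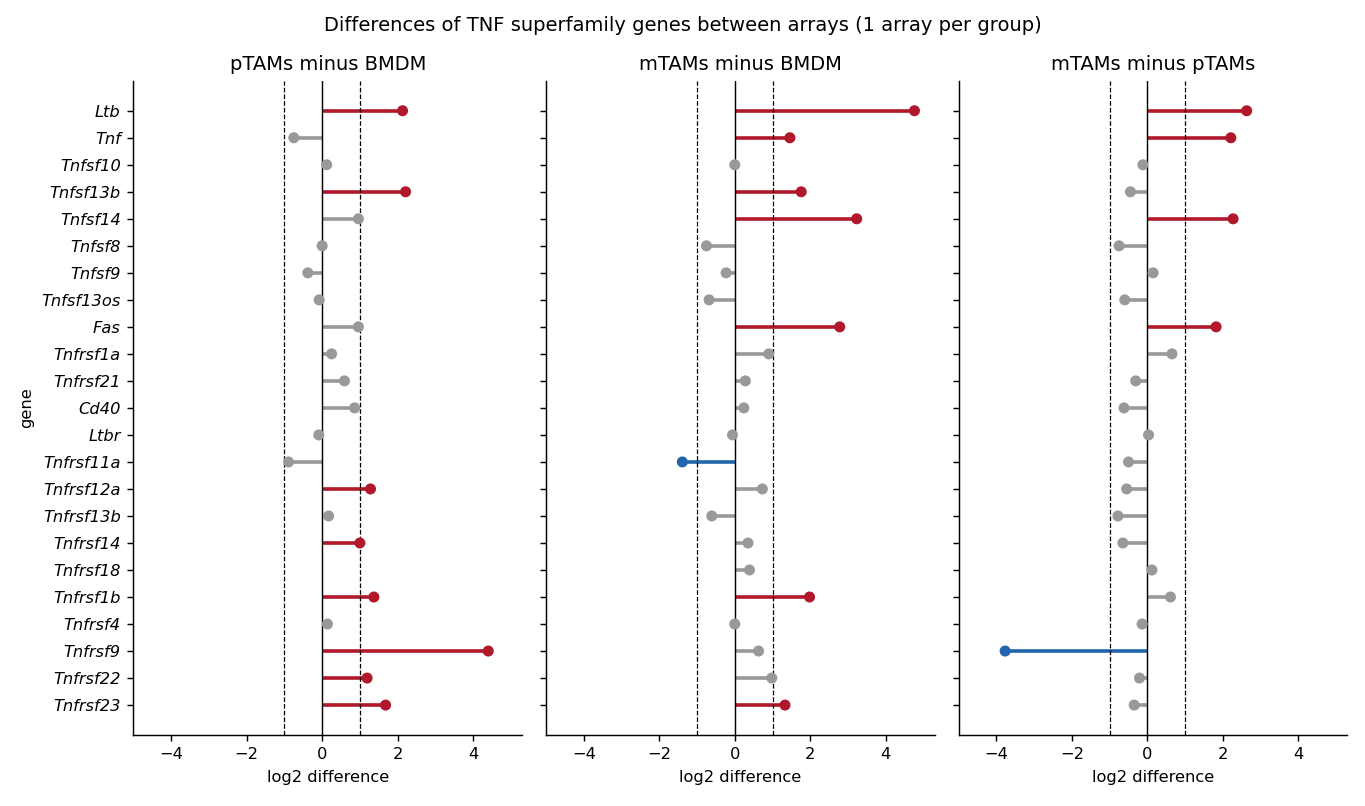
Log2 difference (horizontal axis) of each TNF superfamily gene (vertical axis) between pTAMs and BMDM, mTAMs and BMDM, and mTAMs and pTAMs, 1 array per group, with dashed lines at a 2-fold difference. Red marks at least 2-fold higher, blue at least 2-fold lower and gray less, and no point is drawn where both arrays were at or below the floor. Points are drawn as measured, also where 1 array lay below the floor, as BMDM did for *Tnfrsf9*. *Ltb* extends to 4.76 in the middle panel and *Tnfrsf9* to -3.77 in the last.

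Set against cultured macrophages, more members were called higher than lower on each TAM array. In pTAMs, 8 of 22 members compared (36.4%) were called higher and none lower, against 8.78% and 7.5% of all 11859 genes. The 8 were *Ltb*, *Tnfsf13b*, *Tnfrsf1b*, *Tnfrsf9*, *Tnfrsf12a*, *Tnfrsf14*, *Tnfrsf22* and *Tnfrsf23*. The median log2 difference was 0.73 for the members and -0.05 for all genes. In mTAMs, 7 of 23 members (30.4%) were called higher and 1 (4.35%) lower, against 11.5% and 14.4% of all 11945 genes. The 7 were *Ltb*, *Tnf*, *Tnfsf13b*, *Tnfsf14*, *Fas*, *Tnfrsf1b* and *Tnfrsf23*, and the lower gene was *Tnfrsf11a*. The medians were 0.39 and -0.11. Of all genes called in this comparison 44.4% were higher, and after cyclic loess normalization, which moved the median of all genes from -0.11 to 0.02, 56.9% were. With that scaling 9 of 23 members were higher and 1 was lower, against 1586 higher and 1199 lower of all 11999 genes compared. Both comparisons used the same BMDM array, so their likeness is no separate evidence.

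The ligand genes differed in which TAM array they favored. *Tnfsf13b* encodes BAFF, a survival factor of B cells that myeloid cells secrete. Its signal was 5.87 in BMDM, 8.08 in pTAMs and 7.63 in mTAMs, so that pTAMs exceeded BMDM 4.63-fold and mTAMs 3.39-fold. Both TAM arrays were thus above BMDM and close to each other. Its other 2 probe sets were below the floor on all arrays. Of the genes of BAFF receptors, *Tnfrsf13b* (TACI) was 9.10, 9.27 and 8.49, within 2-fold, and *Tnfrsf13c* and *Tnfrsf17* were at background. *Tnfsf8*, the gene of CD30 ligand, was 6.19 in BMDM and pTAMs and 5.44 in mTAMs. *Tnfsf10*, which encodes the death ligand TRAIL, hardly left the floor at 5.64, 5.76 and 5.64. *Tnfsf13os* was 6.69, 6.61 and 6.01. No value is given for *Tnfsf12* and *Tnfsf13*, whose probe sets carry several gene symbols.

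Among the receptors of TNF itself, the 2 genes differed unequally from BMDM. *Tnfrsf1b*, which encodes TNFR2, the receptor without a death domain, was 8.03 in BMDM, 9.40 in pTAMs and 10.01 in mTAMs, 2.58-fold and 3.94-fold higher than in BMDM. Its second probe set gave smaller log2 differences, 0.17 in place of 1.37 for pTAMs and 0.97 in place of 1.98 for mTAMs. *Tnfrsf1a*, which encodes the death domain receptor TNFR1, was 10.27, 10.52 and 11.17, within 2-fold of BMDM on both TAM arrays. *Tnfrsf21*, which encodes the death domain receptor DR6, was 8.81, 9.40 and 9.09, also within 2-fold.

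*Ltbr* and *Tnfrsf14*, receptor genes of lymphotoxin and LIGHT, spanned less than the ligand genes *Ltb* and *Tnfsf14*. *Ltbr* was 9.11, 9.02 and 9.05 in BMDM, pTAMs and mTAMs, the narrowest range of the 23 genes, while *Ltb* spanned 4.76 log2 units and *Tnfsf14* 3.23. *Tnfrsf14*, which encodes HVEM, was 6.35, 7.35 and 6.70, just reaching 2-fold between pTAMs and BMDM. *Cd40*, a receptor that licenses antigen-presenting cells, was 7.61, 8.47 and 7.85. Its probe set used gave a log2 difference of 0.86 for pTAMs against BMDM and the other 2 gave 1.11 and 1.12. For mTAMs against pTAMs the probe set used gave -0.62, and the others gave -1.04, past 2-fold, and -0.79. *Tnfrsf12a*, the receptor of TWEAK, was 7.37, 8.65 and 8.10, a 2.43-fold excess of pTAMs over BMDM, and its second probe set gave 1.47 in place of 1.28 on the log2 scale. *Tnfrsf4* (OX40) was 6.60, 6.74 and 6.60, and *Tnfrsf18* (GITR) was 4.96, 5.23 and 5.35. Neither differed by 2-fold.

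*Tnfrsf11a* encodes RANK, the receptor through which RANKL drives osteoclast formation, and was the only member called lower than in BMDM on either TAM array. Its signal was 8.76 in BMDM, 7.87 in pTAMs and 7.37 in mTAMs, 2.62-fold lower in mTAMs. The second probe set gave log2 differences of -2.01 for mTAMs and -1.28 for pTAMs, in place of -1.39 and -0.89. Genes that mark osteoclasts were called higher in mTAMs than in BMDM for 4 of 7 compared and lower for 1, *Dcstamp* (6.41, 6.83 and 5.23). In mTAMs against pTAMs 2 of 7 were called higher and 2 lower. *Itgb3* was 5.58 on all arrays, and *Calcr* and *Oscar* were below the floor throughout. *Acp5* was 6.22, 9.75 and 10.36, *Ctsk* 7.53, 5.70 and 9.95, and *Atp6v0d2* 7.88, 6.16 and 10.64 in BMDM, pTAMs and mTAMs, and *Ocstamp* was 5.38, 8.72 and 6.77. *Tnfsf11*, which encodes RANKL, and *Tnfrsf11b*, which encodes its decoy osteoprotegerin, were at background.

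The mouse decoy receptor genes for TRAIL, *Tnfrsf22* and *Tnfrsf23*, were both called higher in pTAMs. *Tnfrsf23* was 6.16 in BMDM, 7.84 in pTAMs and 7.49 in mTAMs, 3.20-fold and 2.51-fold higher than in BMDM. *Tnfrsf22* was 6.64, 7.83 and 7.62, 2.28-fold and 1.97-fold higher. The call for *Tnfrsf22* rests on 1 of its 3 probe sets, since the other 2 gave log2 differences from -0.03 to 0.48 for pTAMs and from -0.42 to 0.58 for mTAMs. These adjacent paralogs share a further probe set that was left out, so their signals may not be fully separate. *Tnfrsf10b*, the gene of the signaling TRAIL receptor, was below the floor on all arrays.

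**Figure D4:**
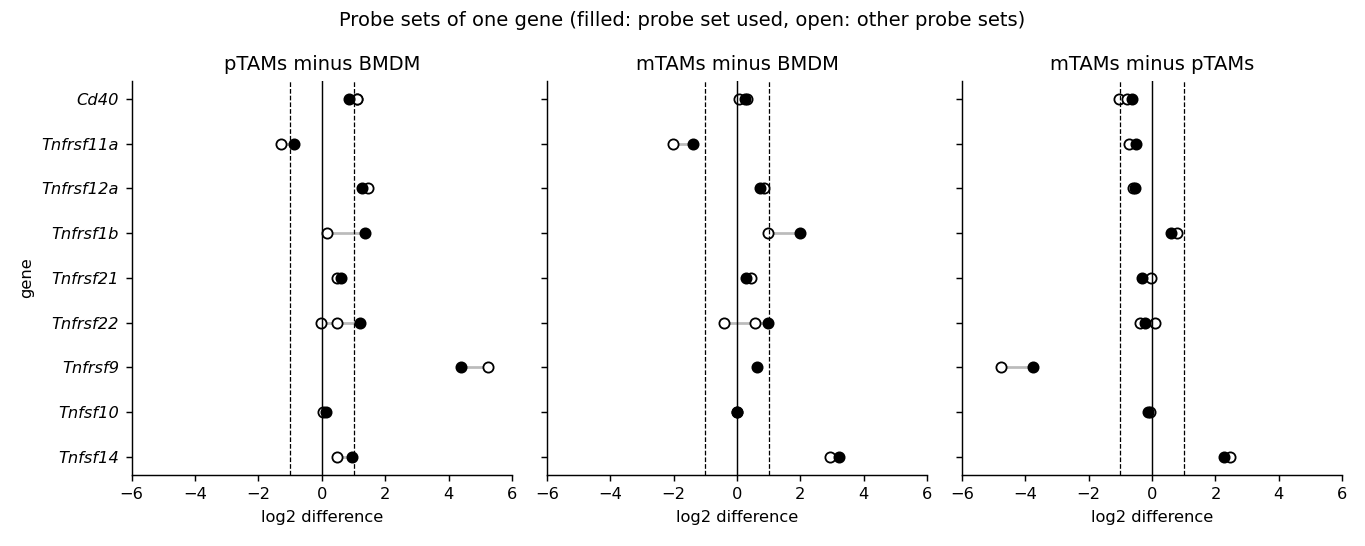
Log2 differences (horizontal axis) given by each probe set for 9 members that have several above background (vertical axis), in the 3 comparisons, with dashed lines at a 2-fold difference. Filled points are the probe sets used and open points the others above the floor. Between mTAMs and pTAMs, *Tnfrsf9* and *Tnfsf14* keep large differences with either probe set. *Tnfrsf1b* and *Tnfrsf22* are spread against BMDM.

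Genes of the pathway inside the cell were read from 6 lists. Their counts and medians stand beside the shares of all genes called above and beside medians over all genes of -0.05, -0.11 and -0.06 (pTAMs against BMDM first, then mTAMs against BMDM, then the TAM arrays against each other). TRAF adaptors differed little, with medians of 0.34, 0.20 and 0.03. Of 10 measured, 1 was called higher and none lower in pTAMs against BMDM, 2 were called higher and 1 lower in mTAMs against BMDM, and none was called between the TAM arrays. The gene that led was *Traf1*, an adaptor induced by NF-κB, at 5.71 in BMDM, 8.0 in pTAMs and 8.71 in mTAMs (4.89-fold and 8-fold above BMDM). *Traf4* was 5.88, 6.46 and 7.16, and *Traf3ip2*, an adaptor of the interleukin-17 receptor, 7.18, 6.74 and 5.92.

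NF-κB subunits and inhibitors differed more. Of 10 measured, 5 were called higher in pTAMs and 7 in mTAMs against BMDM, and 2 in mTAMs against pTAMs, with none called lower. Their median log2 differences were 1.13, 1.91 and 0.51. *Nfkbiz*, an atypical inhibitor protein that acts in the nucleus, was 6.60 in BMDM, 11.07 in pTAMs and 12.55 in mTAMs. *Nfkbid*, a related inhibitor, was 8.39, 8.70 and 10.60, a 3.73-fold excess of mTAMs over pTAMs. *Rel*, a subunit gene, was 6.11, 7.69 and 8.39, *Bcl3* 6.80, 8.38 and 9.08, and *Nfkbie* 7.69, 9.74 and 9.38. Kinase and ubiquitin genes between receptor and NF-κB were mostly level, with 2, 3 and 2 of 21 called higher in the 3 comparisons, none called lower, and medians of 0.18, 0.26 and 0.17. *Tnfaip3*, which encodes A20, an enzyme that ends TNF receptor signaling, was 7.62, 10.48 and 12.15, so that pTAMs exceeded BMDM 7.26-fold and mTAMs 23.1-fold. *Map3k8*, a kinase gene needed for TNF production, was 6.88, 8.43 and 9.87. *Map3k5* was 8.12, 8.30 and 9.25. All 10 immediate early and heat shock genes were also called higher on both TAM arrays against BMDM. So were 8 of 10 neutrophil markers in pTAMs and 9 of 10 in mTAMs. The part of tissue handling and of neutrophils in these differences was not tested.

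**Figure D5:**
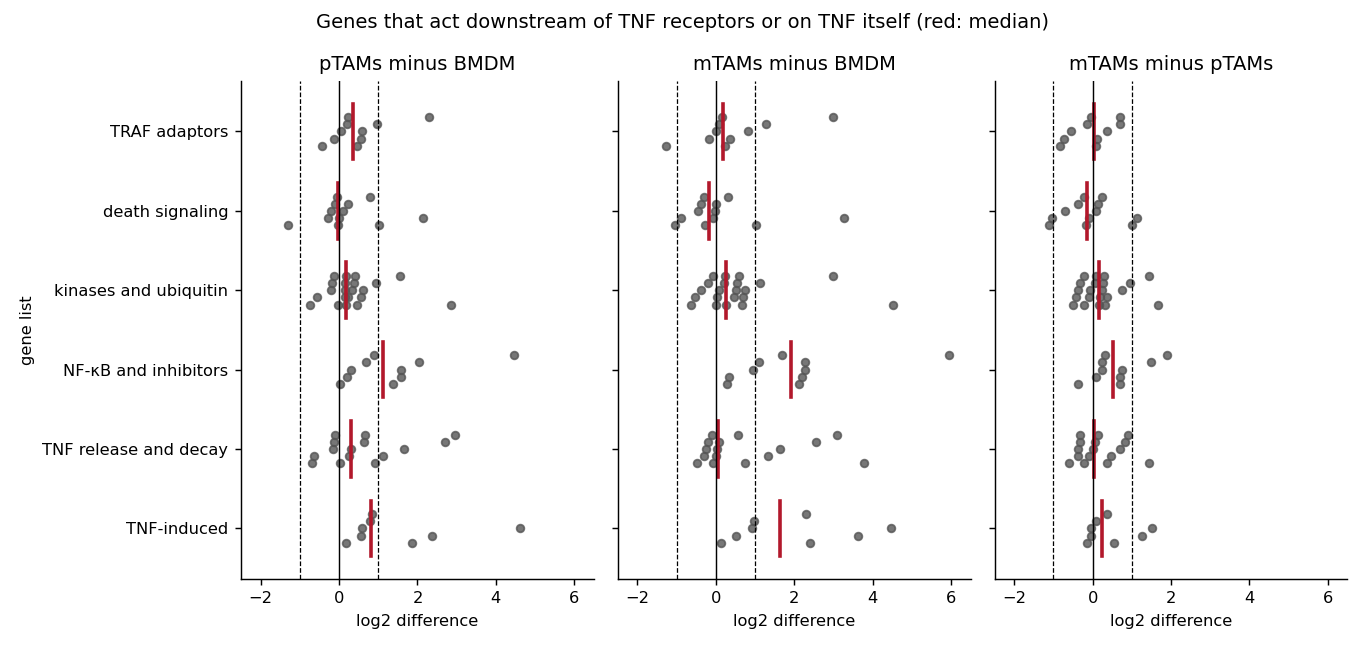
Log2 differences (horizontal axis) of genes of 6 pathway lists (vertical axis) between pTAMs and BMDM, mTAMs and BMDM, and mTAMs and pTAMs, 1 point per gene compared, with the median of each list in red and dashed lines at a 2-fold difference. The NF-κB list has the largest medians against BMDM (1.13 and 1.91), with *Nfkbiz* farthest out at 4.47 and 5.95.

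Of 12 death signaling genes, 2 were called higher and 1 lower in each comparison with BMDM, and 2 higher and 2 lower in mTAMs against pTAMs, with medians between -0.17 and -0.01. *Birc3*, which encodes the inhibitor of apoptosis cIAP2, was 8.44, 10.58 and 11.71, whereas *Ripk3* (9.55, 9.77 and 8.66) and *Mlkl* (8.80, 8.80 and 7.77), which carry out necroptosis, were lowest in mTAMs. *Bid*, a death effector gene, was 9.72, 8.43 and 9.43, and lowest in pTAMs. *Zbp1* was 8.71, 9.72 and 9.01, and *Birc2*, which encodes cIAP1, 7.57, 8.37 and 8.6.

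Genes for the release of TNF or the decay of its mRNA were called higher for 4 of 15 in pTAMs and 5 of 16 in mTAMs against BMDM, and for 1 of 16 in mTAMs against pTAMs, with none called lower and medians of 0.31, 0.05 and 0.03. *Zfp36* encodes tristetraprolin, which binds *Tnf* mRNA and promotes its decay. It was 9.63 in BMDM, 12.59 in pTAMs and 13.42 in mTAMs. *Zfp36l1* was 9.07, 11.77 and 12.15, and *Zc3h12a*, which encodes the RNase Regnase-1, 6.06, 7.72 and 8.62. *Timp3*, an inhibitor of the TNF-releasing protease, was 4.76, 4.95 and 6.40. Of genes that TNF induces, 3 of 8 were called higher in pTAMs and 4 of 8 in mTAMs against BMDM. In mTAMs against pTAMs 2 of 8 were called higher, and none was called lower in any comparison. The medians were 0.81, 1.63 and 0.23. With values raised to the floor, *Tnfaip6* differed 1.56-fold between pTAMs and BMDM, and 2 of 8 were called higher in pTAMs. *Vcam1*, an adhesion molecule gene, was 4.92, 9.53 and 9.40, *Tnfaip6* 3.57, 5.94 and 7.20, *Tnfaip2* 9.76, 10.54 and 12.05, and *Lif* 5.36, 7.22 and 7.77. Several of these genes also answer to other inflammatory signals, and the immediate early and heat shock list, with all 10 genes called higher on both TAM arrays against BMDM, moved with them. Its part was not tested.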

How the data were processed

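Total RNA of 3 sorted macrophage samples was hybridised to Affymetrix mouse arrays, 1 array per group. The authors deposited RMA log2 values of 45037 probe sets, which RMA corrects for background, brings to a common distribution and summarizes over the probes of a set, from 2.21 to 14.38. The version of RMA and the genome build are not given in the sources used here. Scanner intensities were not analysed here. Probe sets with a single symbol in the platform annotation (34945, with 932 of several symbols and 9160 of none) gave 18193 genes, and the probe set of highest average signal stood for its gene. Suffixes that mark shared transcripts were kept. All 39 members were found by gene ID in a RefSeq table of GRCm38.p6.

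A gene was compared when above the floor of 5.3 on at least 1 of the 2 arrays and called from 1 log2 unit upward. Calls used values as measured, whereas folds to a background value were taken to the floor and are lower bounds. A call can thus come with a bound under 2-fold. Summed signals add the linear signals of all measured genes of a list. All members above the floor are named, and from each of 6 pathway lists up to 3 genes per direction and comparison. Members, the floor, lists and motifs were chosen with earlier results of these data known. The call was tested on simulated arrays. Alternatives were cyclic loess or quantile normalization, averaging all probe sets, probe sets without a shared suffix, no floor, a floor of 6.3, values raised to the floor and a 3-fold threshold, and after seeing the data, leaving out *Tnfsf13os*. Python 3.11.15, numpy 2.4.6, pandas 2.3.3, matplotlib 3.10.9, R 4.3.3 and limma 3.58.1 were used.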

Additional observations from a re-analysis of the deposited data

Results flagged for a closer look

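*Tnf* was the only member whose log2 differences from BMDM had opposite signs in pTAMs (-0.75) and mTAMs (1.46) and were each larger than the SD between probe sets of a gene (0.43 and 0.52). It was read from 1 probe set, both differences use the same BMDM array, and the gap between them was not tested. The rule was applied to members only, so the share of all genes that meet it is not known. In pTAMs 1402 of 11859 genes had a smaller difference from BMDM, and in mTAMs 929 of 11945 had a larger one.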

How the results depend on the processing

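No paired analysis was possible because each group had 1 array. Of 21 member differences of at least 2-fold, 17 stayed past that size under every alternative run, and all 21 kept their sign. That stability was partly fixed in advance. Dropping the floor or setting it higher cannot change a difference, and the 3-fold threshold was not applied to single differences. *Ltb*, *Tnf*, *Fas*, *Tnfrsf14* and *Tnfrsf23* were each read from 1 probe set and lay above the floor on all arrays. For these genes only the quantile and cyclic loess normalizations could change the difference. *Tnfsf13b* in mTAMs against BMDM was read under 6 alternatives only, since the mean of its probe sets was at background on both arrays. The exceptions that could be read were all in pTAMs against BMDM. *Tnfrsf14* had a log2 difference of 0.95 after quantile normalization. With the mean of all probe sets, *Tnfrsf1b* had 0.77, *Tnfrsf22* 0.55 and *Tnfsf13b* 0.81. *Tnfrsf22* had 0.48 without shared probe sets. The counts of members moved by over 1.5 times in 3 cases. With the mean of all probe sets, 1 of 22 members (*Tnfrsf11a*, -1.09) was lower in pTAMs than in BMDM in place of 0. Of all 10817 genes compared, 712 were lower with that mean. With a 3-fold threshold, 4 in place of 8 members were higher in pTAMs than in BMDM. In mTAMs 0 in place of 1 was lower than in BMDM with this threshold. Without a floor, over 39 members, the median in pTAMs against BMDM was 0 in place of 0.73, and that of the TNF-induced list in mTAMs against BMDM was 0.95 in place of 1.63. Both alternatives add genes at background, whose differences are near 0. A 3-fold threshold left 637 of 1041 genes higher and 378 of 890 lower in pTAMs against BMDM, 862 of 1368 and 575 of 1715 in mTAMs against BMDM, and 294 of 633 and 58 of 304 in mTAMs against pTAMs. Of 288 recomputed counts of the pathway lists, 20 moved by over 1.5 times. Signal near the floor limits *Tnfrsf18*, *Tnfsf10* and *Tnfrsf9* in BMDM and mTAMs, and the number of arrays limits every value.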

Other observations

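Some members are direct neighbors in the genome, with no protein-coding gene between them in the RefSeq table, and neighbors could differ in pattern. *Ltb*, *Tnf* and *Lta* lie in a row on chromosome 17. *Ltb* and *Tnf* were both highest in mTAMs, but their log2 differences from BMDM in pTAMs were 2.13 and -0.75, and *Lta* was at background. *Tnfsf9*, *Cd70* and *Tnfsf14* are also in a row on chromosome 17, and of these *Tnfsf14* had a log2 difference of 3.23 between mTAMs and BMDM, *Tnfsf9* had -0.23 and *Cd70* was at background. *Tnfrsf1b* and *Tnfrsf8* on chromosome 4 were likewise unlike, with *Tnfrsf8* at or below 5.23 on every array. *Tnfrsf22* and *Tnfrsf23* on chromosome 7 were alike with the probe sets used, with differences from BMDM of 1.19 and 1.68 in pTAMs and of 0.98 and 1.33 in mTAMs. The other probe sets of *Tnfrsf22* gave -0.03 to 0.48 in pTAMs and -0.42 to 0.58 in mTAMs, and the signals of this pair may not be fully separate. *Tnfrsf4* and *Tnfrsf18* on chromosome 4 were both within 2-fold in each comparison where they could be read.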
